A study of Homo sapiens with 21 samples.

Results

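The comparison described here set messenger RNA of 8p loss cells, which lack short-arm material of chromosome 8, against messenger RNA of 8p WT cells. Both groups belong to the chromosome 8 isogenic aneuploidy system of a human line that the labels call only a lung epithelial cell. Each group had 3 libraries, which the labels call biological replicates, so 6 of the 21 libraries of the series enter the comparison. Of 20036 gene names in the table, the 12302 with a mean of at least 1 TPM over the 6 libraries were compared. TPM is a level scaled for gene length and library size. The labels do not say how many clones stand behind each genotype, which parent or passage either line came from, or whether DNA copy number was checked, so differences between the lines other than the 8p loss cannot be told apart from it. The rest of the series holds messenger RNA of 3p loss, 3q gain and Chr3 WT cells and ribosome footprints of 3p loss and 3p WT cells.

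The short arm of chromosome 8 is among the arms most often lost in epithelial cancers, lung cancers included, and it carries TRAIL death receptors, the Wnt inhibitor SFRP1, the growth factor NRG1 and several proposed tumour suppressors. Losing an arm removes a gene copy from many neighbours at once, and messenger RNA usually falls with the copy unless other regulation offsets it. Airway basal cells, the stem cells of the bronchial lining, are known by the keratins KRT5 and KRT14 and the transcription factor TP63, and cultured cells of this kind can shift between epithelial, squamous and mesenchymal gene programmes.

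The deposited values could be turned back into whole reads, which gave 34246930, 45532567 and 35839592 reads in the 8p loss libraries and 47275227, 39140164 and 54734317 in the 8p WT libraries. Replicates were close, and the 2 groups far apart: the chi-square per gene of read counts was 6.11 to 21.3 between libraries of 1 group and 209 to 305 between libraries of different groups, where 1 would be sampling noise alone. Replicate 3 of the 8p loss cells stood furthest from its group, with a limma library weight of 0.407 against 1.01 to 1.68 for the other 5, so counts below are also given without it where they moved by more than 1.5 times. A gene is called changed when its Benjamini-Hochberg adjusted p from limma, over all 12302 genes, is under 0.05. Changes are log2 fold changes of TPM + 1, 8p loss over 8p WT, ± standard error, with 3 libraries a group throughout. At this precision 69.1% of all genes were called, 33.1% higher and 36.0% lower, with a median change of -0.01. A stricter rule, called and at least 2-fold, took 10.2% of genes, 4.37% higher and 5.86% lower. The p-values measure the spread between these libraries only.

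Genes of 8p were lower in 8p loss cells along the whole arm. The table placed 277 names on 8p. Of these, 87 had no value above 0, 44 were below the mean of 1 TPM, and 146 were tested. The tested genes nearest that limit were RBPMS at a mean of 1.09 TPM and LZTS1 at 1.09, and the nearest left out were ANK1 at 0.755 and ADGRA2 at 0.602. Among the tested genes 132 were called lower, 2 were called higher and 12 were not called, a called share of 91.8% against 69.1% of all genes. Their median change was -0.83, against -0.01 over all genes. In 134 genes every 8p loss library was below every 8p WT library, in 2 every one was above, and in 10 the groups overlapped. Over all genes the groups did not overlap in 73.7%, with 8p loss above in 35.1% and below in 38.6%. By size, 51 lay below -1, 66 between -1 and -0.5, and 29 above -0.5, of which 6 were positive. Averaged over its tested genes and set against the other autosomes, the log2 level of the arm was -0.87, -0.87 and -0.83 in the 8p loss libraries and -0.01, 0.02 and 0.02 in the 8p WT libraries. The groups did not overlap, which held for 28 of 41 arms, and they differed by -0.87 (two-sided exact permutation p = 0.1, which is the lowest value possible with 3 libraries a group). From the tip to the centromere, consecutive 10 Mb windows had medians of -0.80, -0.80, -0.84, -0.90 and -0.78, whereas 8q had a median of 0.03.

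**Figure D1:**
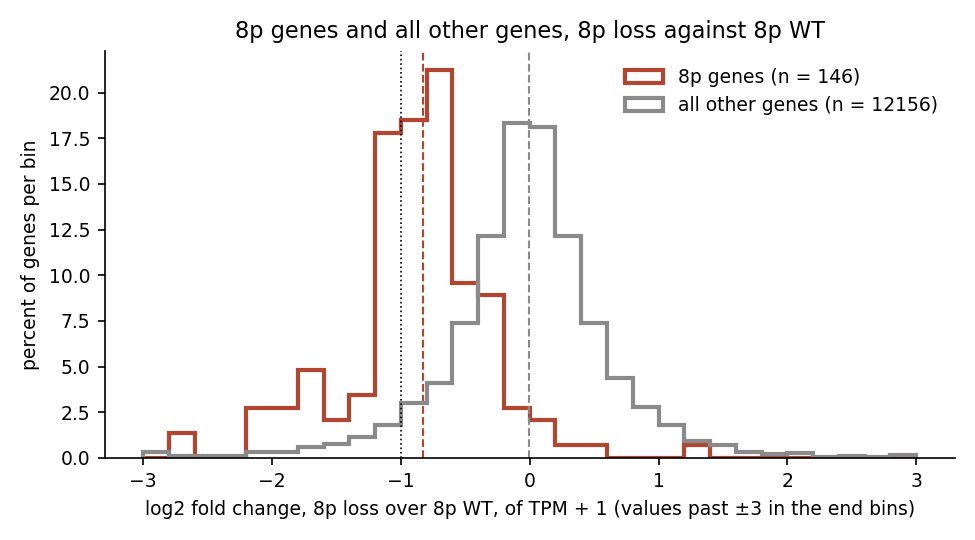
Distribution of log2 fold changes (8p loss over 8p WT, of TPM + 1) as percent of genes per bin, for the 146 tested 8p genes (red) and all other tested genes (grey). Dashed lines mark the medians, which for 8p is -0.83, and the dotted line marks -1.

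The 8p genes that fell furthest had unlike roles. CLU, which encodes the extracellular chaperone clusterin, had 10.7, 11.2 and 10.1 TPM in 8p loss libraries and 76.3, 81.2 and 80.6 TPM in 8p WT libraries. All 3 8p loss libraries were far below every 8p WT library, a change of -2.79 ± 0.05 (limma adjusted p = 1.4e-07). SFRP1, a secreted inhibitor of Wnt ligands, had 59.6, 59.8 and 58.3 TPM in 8p loss libraries and 234.9, 232.5 and 231.0 TPM in 8p WT libraries. The groups did not overlap and the change was -1.96 ± 0.03 (limma adjusted p = 6.6e-08). The immediate early factor EGR3 (-2.62 ± 0.12), the nuclear receptor corepressor HR (-2.19 ± 0.09), the ErbB ligand NRG1 (-2.06 ± 0.06), the kinase PTK2B (-2.03 ± 0.05), RHOBTB2 (-2.02 ± 0.05) and the scavenger receptor gene SCARA3 (-1.98 ± 0.05) also fell. Some cell division genes of the arm, picked after their values were seen, fell by similar amounts on the log2 scale. GINS4, of the replicative helicase, fell by 1.87 ± 0.07 and CDCA2, a mitotic phosphatase subunit, by 1.82 ± 0.03. ESCO2, which acetylates cohesin, fell by 1.79 ± 0.07 and the mitotic kinase PBK by 1.72 ± 0.08. Other such genes lay near the median of the arm, with MCPH1 at -0.76 ± 0.06 and REEP4 at -0.80 ± 0.08. FDFT1, the first enzyme committed to sterol synthesis, had 61.9, 62.9 and 64.5 TPM in 8p loss libraries and 216.8, 224.6 and 224.4 TPM in 8p WT libraries. It fell by 1.80 ± 0.03 on the log2 scale (limma adjusted p = 1.1e-07), with no overlap, and the glutathione reductase gene GSR fell by 1.74 ± 0.03.

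Most other 8p genes lay near the value of the arm. Of 98 listed genes known from work on 8p, 88 were tested, 83 of them called lower and 1 higher, with a median of -0.85; 2 were higher without 8p loss replicate 2, 8p loss replicate 3 or 8p WT replicate 1. The chromatin regulators ASH2L (-1.13 ± 0.06), KAT6A (-0.96 ± 0.05) and NSD3 (-0.87 ± 0.04), the protease gene CTSB (-0.71 ± 0.03) and the growth factor receptor FGFR1 (-0.72 ± 0.07) were all called lower. The TRAIL receptors did not move together. The death receptors TNFRSF10B and TNFRSF10A changed by -0.64 ± 0.03 and -0.56 ± 0.05. The decoy receptor TNFRSF10D had 19.9, 24.4 and 24.7 TPM in 8p loss libraries and 14.8, 16.6 and 17.2 TPM in 8p WT libraries. It was higher without overlap (0.48 ± 0.10, limma adjusted p = 0.0037), while the decoy TNFRSF10C, at 0.19 ± 0.08, was not called. These 4 genes resemble each other in sequence, so reads could be split between them. DLC1, often named as an 8p tumour suppressor, had 18.2, 17.3 and 17.7 TPM in 8p loss libraries and 16.9, 17.6 and 18.3 TPM in 8p WT libraries, which overlapped (0.01 ± 0.05, not called). The translation repressor gene EIF4EBP1, at 365 ± 36.0 TPM in 8p loss and 422 ± 10.4 TPM in 8p WT (SD), changed by only -0.22 ± 0.07. FAM167A was the 8p gene with the largest increase, at 12.4, 12.4 and 11.8 TPM in 8p loss libraries and 5.00, 4.22 and 3.94 TPM in 8p WT libraries (1.30 ± 0.08, limma adjusted p = 1.3e-05), with no overlap.

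The 8p shift was not the only one that followed the chromosomes. Outside 8p, 12 stretches on chromosomes 3, 4, 6, 7, 10, 20 and X had window medians of 0.5 or more in size. Windows needed at least 5 tested genes, and stretches at least 10. The short arm of chromosome 10 was higher, with a median of 0.79 over 101 genes, 89 of them called higher and 3 lower. On chromosome 4, genes from 130 to 190 Mb had a median of -0.89 (107 genes, 99 lower), those from 80 to 100 Mb one of -0.90 (50 genes, 42 lower) and those from 0 to 10 Mb one of -0.75 (67 genes, 53 lower). On chromosome 20, genes from 30 to 50 Mb had a median of -0.70 (151 genes, 128 lower), while those from 60 to 70 Mb had one of 0.84 (40 genes, 38 higher). The end of 6q, from 150 to 180 Mb, had a median of 0.66 (58 genes, 42 higher). The other 5, single windows on chromosomes 3, 7 and X, had medians of -0.50 to -0.53. Together with the few 8q genes that share a window with the end of 8p, these were 739 genes, of which 89.3% were called, against 67.5% of the 11417 genes that lay neither there nor on 8p. Of those 11417, 8.86% were called and at least 2-fold. They include genes of arms with weaker shifts. Over the whole of Xq the median was -0.46 (231 genes, 173 lower and 19 higher). Over 20p it was 0.34 (105 genes, 73 higher and 13 lower). Copy number was not measured in these files, and the stretches were found from the same expression values.

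**Figure D2:**
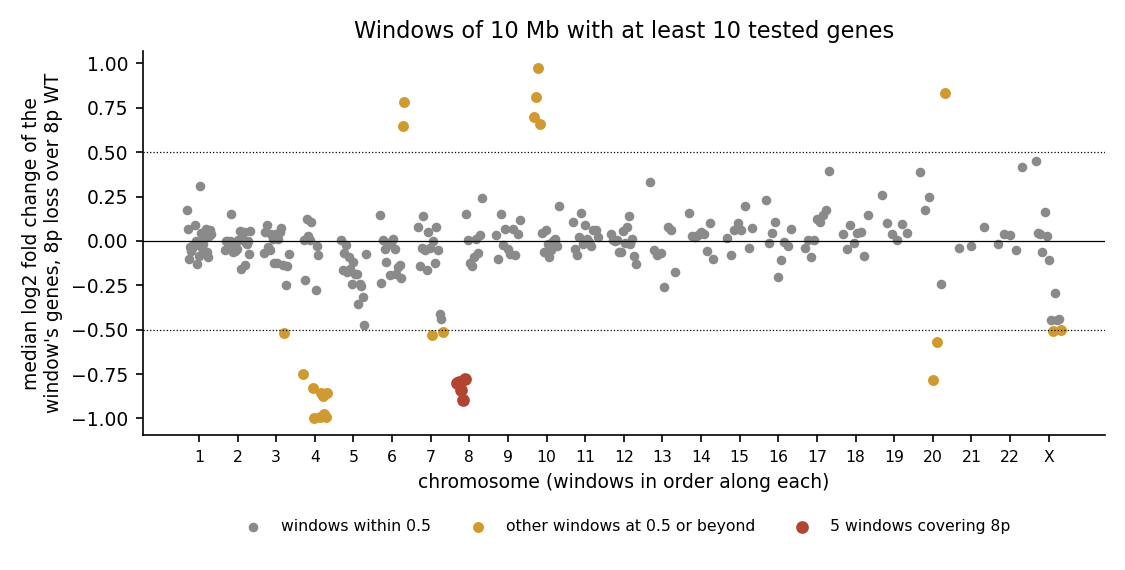
Median log2 fold change (8p loss over 8p WT, of TPM + 1) of the tested genes in each 10 Mb window with at least 10 genes, by chromosome and in order along it. The 5 windows that cover 8p (red) lie between -0.78 and -0.90, and windows at 0.5 or beyond elsewhere (amber) are mainly on chromosomes 4, 10 and 20.

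Most basal cell markers, among them the abundant keratins KRT5 and KRT17, were lower in 8p loss. KRT5, the keratin of basal airway cells, had 1762, 1763 and 1793 TPM in 8p loss libraries and 6435, 6251 and 6017 TPM in 8p WT libraries. The levels did not overlap and the change was -1.81 ± 0.03 (limma adjusted p = 1.5e-07). TP63, the transcription factor of basal cells, had 57.1, 56.1 and 60.6 TPM in 8p loss libraries and 142.6, 147.0 and 145.6 TPM in 8p WT libraries. It too was lower without overlap, by -1.31 ± 0.04 (limma adjusted p = 4.9e-07). Of 10 basal markers, all tested, 8 were called lower and 1 higher, with a median of -1.35, while 36.0% of all genes were called lower. The nerve growth factor receptor NGFR changed by -2.39 ± 0.10, the cytolinker DST by -1.80 ± 0.05, KRT15 by -1.66 ± 0.08, KRT17 by -1.39 ± 0.04, and KRT14 and the laminin receptor subunit ITGA6 by -0.67 ± 0.03 and -0.68 ± 0.03. The hemidesmosome collagen COL17A1 was slightly higher at 0.09 ± 0.03, a call lost without replicate 2 of the 8p WT cells, and the integrin ITGB4, at -0.07 ± 0.07, was not called. Summed over the list, 8p loss libraries held 4732 to 4831 TPM and 8p WT libraries 11925 to 12475 TPM, so the defining basal markers stayed abundant in both groups. Keratins have close paralogs that can share reads.

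Cell junction genes and the transcription factors that maintain epithelium were lower as a group. Of 31 tested members of 33 listed, 27 were called lower and 1 higher, with a median of -1.17, and 16 were at least 2-fold lower. Over all genes 36.0% were called lower. Without 8p loss replicate 3, 28 members were lower and 2 higher. None of them lies on 8p or in the other shifted stretches. CDH1, which encodes the adherens junction cadherin E-cadherin, had 68.3, 66.0 and 69.9 TPM in 8p loss libraries and 356.1, 361.5 and 367.8 TPM in 8p WT libraries. Every 8p loss library was far below every 8p WT library (-2.39 ± 0.03, limma adjusted p = 6.6e-08). RAB25, an epithelial membrane traffic GTPase, had 6.54, 4.61 and 4.43 TPM in 8p loss libraries and 47.9, 49.9 and 51.6 TPM in 8p WT libraries. It also differed without overlap, by -3.05 ± 0.12 (limma adjusted p = 2.0e-06). The tight junction genes CGN and CLDN4 changed by -3.15 ± 0.10 and -2.68 ± 0.14, the surface glycoprotein gene CD24 by -3.12 ± 0.04, and the epithelial transcription factors GRHL2 and OVOL1 by -2.84 ± 0.08 and -2.52 ± 0.09. The splicing regulator ESRP1 changed by -1.47 ± 0.03. The desmosome gene DSP (-0.65 ± 0.03) and the adherens junction cadherin CDH3 (-0.74 ± 0.03) were also lower. DSG2 was the 1 member called higher, at 0.23 ± 0.03, and the tight junction gene CLDN1, at 383 ± 5.91 TPM in 8p loss and 392 ± 6.37 TPM in 8p WT (SD), was not called.

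Squamous differentiation genes, the products of a stratifying epithelium, were lower too. Of 33 tested members of 47 listed, 26 were called lower and 2 higher, with a median of -1.20, and 20 were at least 2-fold lower. The shares over all genes were 36.0% called lower and 5.86% called at least 2-fold lower. The skin protease KLK5 had 0, 0 and 0.362 TPM in 8p loss libraries and 30.5, 32.6 and 28.0 TPM in 8p WT libraries. That is 6 reads in 8p loss against 1924 in 8p WT (-4.82 ± 0.14, limma adjusted p = 5.1e-07). The related proteases KLK6, KLK10 and KLK7, the cornified envelope gene SPRR3 and the antimicrobial S100A7 had no read in any 8p loss library. These genes and KLK5 passed the filter only through their 8p WT levels. They could therefore only come out lower, and they are part of the counts above. Against a floor of 3 reads over the group, KLK10 was at least 134.5-fold lower, KLK6 at least 81.5-fold, SPRR3 at least 51.7-fold, KLK7 at least 32.9-fold and S100A7 at least 12.8-fold. The mucosal keratin KRT13 changed by -3.93 ± 0.14, the envelope precursors SPRR1B and SCEL by -3.91 ± 0.24 and -3.43 ± 0.09, and the abundant stress keratin KRT6A by -1.09 ± 0.03. SPRR2D (0.59 ± 0.10) and KRT10 (0.81 ± 0.30) were higher. For KRT10 the 99.2 TPM of replicate 2 stood apart from 43.7 and 42.9 TPM in the other 8p loss libraries and 30.9, 32.7 and 33.1 TPM in 8p WT, and the call was lost in 5 of the alternatives run.

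**Figure D3:**
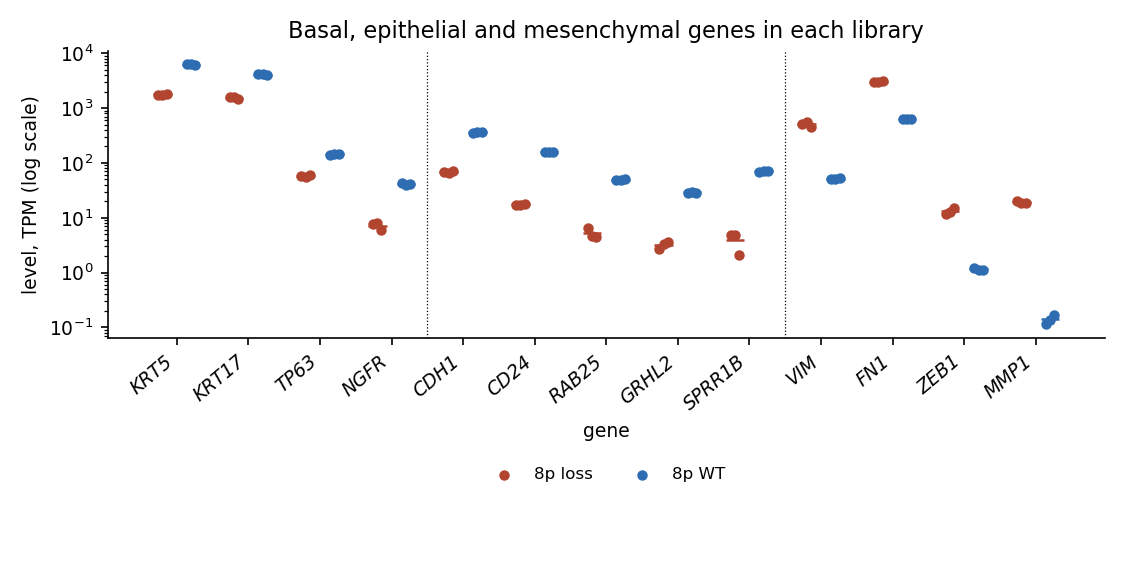
Level in TPM (log axis) of 13 genes in each of the 3 8p loss (red) and 3 8p WT (blue) libraries, with bars at the group means. Basal genes (left) and epithelial and squamous genes (middle) lie lower in every 8p loss library, and VIM, FN1, ZEB1 and MMP1 (right) lie higher in every one. The genes are picked examples. Of the 28 tested TGF-beta and mesenchymal genes 12 were called higher and 10 lower. VIM and ZEB1 lie on 10p, whose genes had a median of 0.79.

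Mesenchymal genes moved in both directions. Of 28 tested members of a list of TGF-beta and mesenchymal genes, 12 were called higher and 10 lower, with a median of 0.15. Among all genes 33.1% were called higher and 36.0% lower. By the 2-fold rule 8 members were higher and 4 lower, where 4.37% and 5.86% of all genes were. Outside the shifted stretches 9 of 24 were higher and 10 lower, with a median of -0.04. VIM, the intermediate filament of mesenchymal cells, had 514.6, 551.4 and 450.4 TPM in 8p loss libraries and 50.2, 51.9 and 52.3 TPM in 8p WT libraries. It was higher in all 3 (3.27 ± 0.07, limma adjusted p = 2.4e-07), and it lies on 10p, whose genes had a median of 0.79. FN1, which encodes the matrix protein fibronectin, had 3010, 2992 and 3165 TPM in 8p loss libraries and 628.7, 630.2 and 646.8 TPM in 8p WT libraries. It rose by 2.26 ± 0.03 without overlap (limma adjusted p = 7.4e-08). The smooth muscle actin ACTA2 (1.80 ± 0.08), the ligand TGFB1 (1.53 ± 0.12) and N-cadherin, CDH2 (1.28 ± 0.08), rose as well. POSTN, a matrix protein gene, had 984 reads in 8p loss and none in 8p WT, at least 387-fold higher. POSTN passed the filter only through 8p loss, so it could only come out higher. ZEB1, a repressor of epithelial genes on 10p, had 11.9, 12.9 and 15.3 TPM in 8p loss libraries and 1.23, 1.11 and 1.11 TPM in 8p WT libraries, with no overlap (2.73 ± 0.10, limma adjusted p = 1.3e-06). The related repressor SNAI2, on 8q, was higher at 0.50 ± 0.03, while SNAI1 (0.23 ± 0.15) and TWIST1 (0.22 ± 0.13) were not called. In the other direction, the actin-binding TAGLN (-2.84 ± 0.10), the YAP and TGF-beta target CCN2 (-1.79 ± 0.05), the collagen crosslinker LOX (-1.76 ± 0.04) and the matrix protein SPARC (-1.20 ± 0.04) fell.

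ZEB and SNAIL repressors are known to bind the E-box CAGGTG in epithelial promoters, so windows from 250 bases before to 50 bases after each annotated start (RefSeq, GRCh38.p14) were searched for it on both strands. CAGGTG reads CACCTG on the other strand, and neither overlaps the second motif searched below. A gene counted as holding it if any of its windows did. It was found in 11 of 18 tested junction genes with a window (61.1%) and in 12 of 22 squamous genes (54.5%), against 23.8% of 9908 tested genes with a window and 20.6% of 35116 windows. It was in 34.7% of the 510 genes called at least 2-fold lower and 25.5% of the 392 called at least 2-fold higher. DSG2, which was called higher, also held it. CGN and CLDN4, among the junction genes that fell furthest, had a window without it, and CDH1 had no window in the table. The shares in the junction and squamous lists do not depend on the changes measured here, so they cannot show why these genes were lower. No binding was measured here, and whether the E-box has a part in these changes was not tested. The RAB25 window (chr1:156060910-156061209, plus strand) and the more E-box-rich of the windows of the tight junction gene CLDN7 (chr17:7262429-7262728, minus strand), which fell by 1.41 ± 0.05 on the log2 scale, show it in capitals, 2 and 5 times.
RAB25: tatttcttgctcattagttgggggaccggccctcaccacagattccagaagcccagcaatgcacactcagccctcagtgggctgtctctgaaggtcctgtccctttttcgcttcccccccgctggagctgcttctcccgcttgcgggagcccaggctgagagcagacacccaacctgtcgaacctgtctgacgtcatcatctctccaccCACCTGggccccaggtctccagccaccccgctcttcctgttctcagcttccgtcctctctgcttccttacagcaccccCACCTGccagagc
CLDN7: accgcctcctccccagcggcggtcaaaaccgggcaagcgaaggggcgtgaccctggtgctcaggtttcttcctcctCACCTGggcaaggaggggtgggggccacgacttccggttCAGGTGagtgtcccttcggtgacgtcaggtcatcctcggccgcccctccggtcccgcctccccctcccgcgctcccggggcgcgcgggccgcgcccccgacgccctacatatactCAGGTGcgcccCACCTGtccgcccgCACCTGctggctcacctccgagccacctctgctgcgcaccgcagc

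Genes that remodel the matrix outside the cell were mostly higher. Of 22 tested extracellular proteases and inhibitors, 14 were called higher and 7 lower, with a median of 0.88. The shares over all genes were 33.1% higher and 36.0% lower. The interstitial collagenase MMP1 had 20.1, 19.0 and 18.3 TPM in 8p loss libraries and 0.113, 0.136 and 0.170 TPM in 8p WT libraries. It was among the largest increases in the table (4.14 ± 0.07, limma adjusted p = 1.1e-07), although 8p WT held only 15 reads. The protease inhibitor SERPINE2 (2.17 ± 0.06), the gelatinase MMP2 (1.61 ± 0.09), the stromelysin MMP3 (1.54 ± 0.12) and the membrane protease MMP14 (1.10 ± 0.03) rose. The metalloprotease inhibitor TIMP3 had 32.3, 34.1 and 34.3 TPM in 8p loss libraries and 211.3, 206.0 and 221.4 TPM in 8p WT libraries, lower without overlap (-2.63 ± 0.04, limma adjusted p = 8.5e-08). Of 32 integrins, laminins and collagens, 17 were higher and 13 lower. The laminin chain gene LAMB3 (0.88 ± 0.05) rose, and the epithelial integrin ITGB6 (-1.63 ± 0.06) fell.

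Most markers that define other cell types were below the filter. The club cell gene SCGB1A1, the ciliated cell regulator FOXJ1, the alveolar SFTPC and NKX2-1, and the lymphocyte genes CD3D, CD3E and MS4A1 were at 0 in all 6 libraries. Of 10 fibroblast markers, 7 were below the filter, COL1A2 and PDGFRA reached at most 0.04 TPM, and the sum of the list was 15.9 to 17.1 TPM in 8p loss and 8.07 to 9.26 TPM in 8p WT libraries. DCN (1.72 ± 0.08) and FAP (1.19 ± 0.07) were higher and COL1A1 (-0.49 ± 0.10) lower. All 8 endothelial markers were below the filter, as were 9 of 11 immune, 9 of 10 ciliated, 8 of 10 club and secretory, 8 of 13 alveolar and 7 of 9 neuroendocrine markers. The summed level of the alveolar list was 445.0 to 464.7 TPM in 8p loss and 1027 to 1056 TPM in 8p WT libraries, mostly CAV1, LAMP3 and PDPN, and that of the immune list 59.6 to 85.3 TPM in 8p loss and 39.9 to 63.0 TPM in 8p WT libraries, mostly CD68. The club and secretory list summed to 22.3 to 24.6 TPM in 8p loss and 39.3 to 41.3 TPM in 8p WT, and the neuroendocrine list to 20.3 to 20.5 TPM in 8p loss and 13.8 to 14.9 TPM in 8p WT. The ciliated list stayed at 5.01 TPM or less and the endothelial list at 2.21 TPM or less. Of the markers above the filter, the alveolar list's CAV1, LAMP3 and SFTPD were lower and PDPN higher, the immune list's CSF1R was lower and CD68 higher, a call lost without any 1 of 4 of the libraries, and WFDC2 was lower and CAPS and CHGB higher. The part of these markers in the results above was not tested. In bulk libraries, fewer cells with a programme and less of its RNA in each cell cannot be told apart.

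Several single genes known from stress responses were higher in 8p loss cells. They are given one by one and are not a tally of a pathway. CDKN1A, which encodes the cell cycle inhibitor p21, had 1055, 1011 and 978 TPM in 8p loss libraries and 427.8, 421.9 and 415.1 TPM in 8p WT libraries. It rose by 1.26 ± 0.03 without overlap (limma adjusted p = 4.3e-07). MDM2, a ubiquitin ligase gene, had 222.6, 221.8 and 243.0 TPM in 8p loss libraries and 109.8, 107.9 and 107.6 TPM in 8p WT libraries, also without overlap (1.07 ± 0.04, limma adjusted p = 1.5e-06). The mitochondrial quality gene SPATA18 (1.51 ± 0.05), the stress cytokine GDF15 (1.33 ± 0.21), the DNA damage gene GADD45A (0.92 ± 0.13) and the cell death genes BBC3 (1.05 ± 0.17) and BAX (0.82 ± 0.04) were higher.

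Cell cycle genes were lower. Of 49 tested members, 43 were called lower and 5 higher, with a median of -0.69, and 9 were at least 2-fold lower. Among all genes 36.0% were called lower and 5.86% at least 2-fold lower. CENPE, a kinetochore motor, had 14.9, 14.8 and 14.2 TPM in 8p loss libraries and 56.6, 56.2 and 56.6 TPM in 8p WT libraries (-1.88 ± 0.04, limma adjusted p = 1.5e-07), and the groups did not overlap. RRM2, which makes deoxynucleotides, had 48.5, 48.5 and 47.0 TPM in 8p loss libraries and 172.2, 170.1 and 168.0 TPM in 8p WT libraries (-1.80 ± 0.03, limma adjusted p = 8.8e-08), again without overlap. The mitotic kinases CDK1 and AURKA changed by -1.22 ± 0.03 and -1.18 ± 0.03, the proliferation marker MKI67 by -1.10 ± 0.05 and the topoisomerase TOP2A by -0.92 ± 0.03. The replication clamp PCNA fell less, at -0.12 ± 0.03. CDKN2A, which encodes the inhibitor p16, was higher at 1.14 ± 0.25, with 177.5, 231.9 and 107.5 TPM in 8p loss libraries and 78.6, 73.1 and 70.1 TPM in 8p WT libraries. DNA repair genes followed with 19 of 36 lower and 7 higher, led by the exonuclease EXO1 (-1.03 ± 0.06), and 4 were higher without replicate 2 or without replicate 3 of the 8p WT cells.

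Many G2 and M phase promoters are known to carry the CHR element TTTGAA, at which the DREAM complex represses them. Searched on both strands of the same windows, it was found in 14 of 39 tested cell cycle genes (35.9%), against 13.4% of tested genes with a window and 15.2% of all windows. It was in 17.3% of the genes called at least 2-fold lower and 12.8% of those at least 2-fold higher. Because such promoters are known to carry it, the share in the cell cycle list does not depend on the levels measured here. That share therefore cannot show why these genes were lower. Binding of DREAM was not measured, and whether the CHR element has a part in these changes was not tested. The CDK1 window with the most matches (chr10:60778228-60778527, plus strand) holds the CHR element 3 times, in capitals.
CDK1: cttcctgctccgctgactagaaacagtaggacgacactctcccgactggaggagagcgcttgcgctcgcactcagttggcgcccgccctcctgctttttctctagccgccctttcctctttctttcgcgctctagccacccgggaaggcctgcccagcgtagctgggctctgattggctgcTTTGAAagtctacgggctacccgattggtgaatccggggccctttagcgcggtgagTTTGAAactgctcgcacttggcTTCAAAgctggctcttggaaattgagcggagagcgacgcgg

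Genes of cholesterol and fatty acid synthesis were lower. Of 33 tested members, 28 were called lower and 2 higher, with a median of -0.58, while 36.0% of all genes were called lower. None of the 33 lies on 8p, where FDFT1 of the same pathway fell by more than the arm. HMGCS1, an early enzyme of cholesterol synthesis, had 35.0, 37.1 and 38.7 TPM in 8p loss libraries and 132.6, 130.6 and 133.4 TPM in 8p WT libraries. The groups did not overlap (-1.81 ± 0.04, limma adjusted p = 2.8e-07). On the same scale, the methylsterol oxidase MSMO1 changed by -2.01 ± 0.05, the sterol sensor INSIG1 by -1.75 ± 0.05 and the fatty acid desaturase SCD by -1.36 ± 0.02. MSMO1 and INSIG1 lie in shifted stretches of chromosomes 4 and 7, and without 5 such members 23 of 28 were lower, with a median of -0.54. The regulator SREBF2 itself changed by -0.09 ± 0.03.

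**Figure D4:**
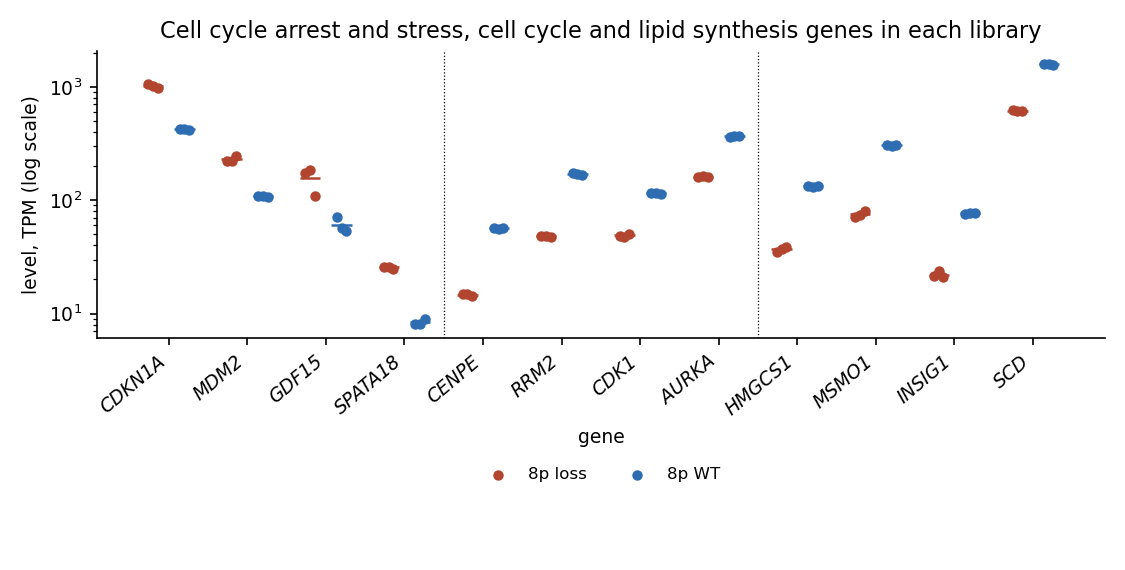
Level in TPM (log axis) of 4 cell cycle arrest and stress genes (left), 4 cell cycle genes (middle) and 4 lipid synthesis genes (right) in each of the 3 8p loss (red) and 3 8p WT (blue) libraries, with bars at the group means. The 4 genes on the left lie higher in every 8p loss library and the other 8 genes lower in every one.

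Genes of protein synthesis, folding and breakdown moved by small amounts. Their counts stand against 33.1% of all genes called higher and 36.0% called lower. Of 77 cytosolic ribosomal protein genes 53 were called higher and 8 lower, with a median of 0.19, and none changed by 2-fold. Of 28 endoplasmic reticulum chaperone and unfolded protein response genes 22 were higher and 4 lower, with a median of 0.27, and 2 lower without 8p loss replicate 2, 8p WT replicate 2 or 8p WT replicate 3. The main chaperone of that compartment, HSPA5, had 1139, 1131 and 1140 TPM in 8p loss libraries and 719.9, 699.4 and 692.3 TPM in 8p WT libraries (0.69 ± 0.03, limma adjusted p = 1.5e-06), without overlap, while CALR fell by 0.42 ± 0.03 on the log2 scale. Cytosolic chaperones went the other way, with 20 of 26 heat shock and chaperonin genes lower and 3 higher. HSP90AA1 changed by -0.99 ± 0.04 and the small heat shock gene HSPB1 by -1.49 ± 0.18. Of 32 proteasome subunit genes 21 were lower and 4 higher (median -0.34), and outside the shifted stretches 21 of 29 were lower and 1 higher. Of 76 nuclear genes of oxidative phosphorylation 47 were lower and 7 higher (median -0.22). Without replicate 3 of the 8p loss cells 48 were lower and 14 higher. The 13 mitochondrially encoded genes had 7 higher and 2 lower, but 3 higher without 8p loss replicate 1, 8p WT replicate 1 or 8p WT replicate 2. Mitochondrial ribosomal proteins were 26 higher and 23 lower of 76, with 16 higher without 8p WT replicate 3. Translation factors (17 higher and 18 lower of 47), aminoacyl tRNA synthetases (6 and 6 of 23) and ATF4 targets (10 and 11 of 32) were split, and synthetases had 3 higher without 8p WT replicate 2.

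Immune and inflammatory genes were divided, where 33.1% of all genes were called higher and 36.0% lower. Of 52 tested interferon response genes 32 were lower and 14 higher, with a median of -0.27. EPSTI1 had 1.01, 0.718 and 0.304 TPM in 8p loss libraries and 32.2, 30.9 and 30.8 TPM in 8p WT libraries (-4.29 ± 0.15, limma adjusted p = 1.1e-06), with no overlap. The guanylate binding protein GBP1 (-1.80 ± 0.06) and the RNA sensor effector IFIT1 (-0.68 ± 0.04) fell, whereas the membrane antiviral genes IFITM2 (2.10 ± 0.04) and IFITM3 (0.66 ± 0.04), the ubiquitin-like ISG15 (0.80 ± 0.16) and XAF1 (2.08 ± 0.07) rose. IFITM genes are close paralogs. Of 29 tested inflammatory NF-kappa-B targets 16 were higher and 7 lower, with a median of 0.33. The cytokine IL6 had 37.7, 39.1 and 40.3 TPM in 8p loss libraries and 11.0, 9.36 and 9.99 TPM in 8p WT libraries, higher without overlap (1.85 ± 0.06, limma adjusted p = 9.3e-07). IL1B rose by 1.10 ± 0.03 and the chemokine CCL20 fell by 1.17 ± 0.06 on the log2 scale.

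Growth factor pathways held some of the larger single changes. Their counts are set against 33.1% of all genes called higher and 36.0% called lower. Of 8 tested FGF ligands and receptors, a list without FGFR1 of 8p, 7 were lower and 1 higher. Outside the shifted stretches 5 of 6 were lower and 1 higher, with a median of -0.58. The FGF carrier FGFBP1 had 28.6, 31.5 and 32.5 TPM in 8p loss libraries and 412.5, 411.9 and 412.5 TPM in 8p WT libraries, without overlap (-3.70 ± 0.05, limma adjusted p = 6.6e-08). The receptors FGFR3 (-3.30 ± 0.13, in the shifted start of chromosome 4) and FGFR2 (-2.10 ± 0.09) fell, and the ligand FGF2 was higher at 0.38 ± 0.03. Among 27 YAP target genes 15 were lower and 8 higher, with the tissue factor F3 at -2.15 ± 0.03 and the angiomotin AMOT at -2.21 ± 0.08. Of 39 MAPK pathway genes 18 were higher and 10 lower, with FOSL1 at 0.99 ± 0.05 and FOSB at -1.88 ± 0.07. Wnt genes were 7 higher and 12 lower of 29, with the inhibitor DKK1 at -2.16 ± 0.09 and the ligand WNT10A at -2.97 ± 0.11. Notch genes were 6 higher and 8 lower of 17, with the modifier LFNG at -2.17 ± 0.10.

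Other lists had members called in both directions, as did all genes, with 33.1% higher and 36.0% lower. Lysosome genes had 13 higher and 14 lower of 34, and metal transport genes 6 and 6 of 14. Death receptor signalling genes, a list without the TRAIL receptors of 8p, had 6 and 8 of 17. MHC class II genes had 1 and 1 of 4. Autophagy genes had 13 higher and 4 lower of 25, sphingolipid genes 14 and 5 of 27, and BCL2 family genes 8 and 3 of 15, with 5 higher without 8p loss replicate 1. NRF2 targets had 9 higher and 15 lower of 28, and hypoxia and glycolysis genes 11 and 16 of 34.

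**Figure D5:**
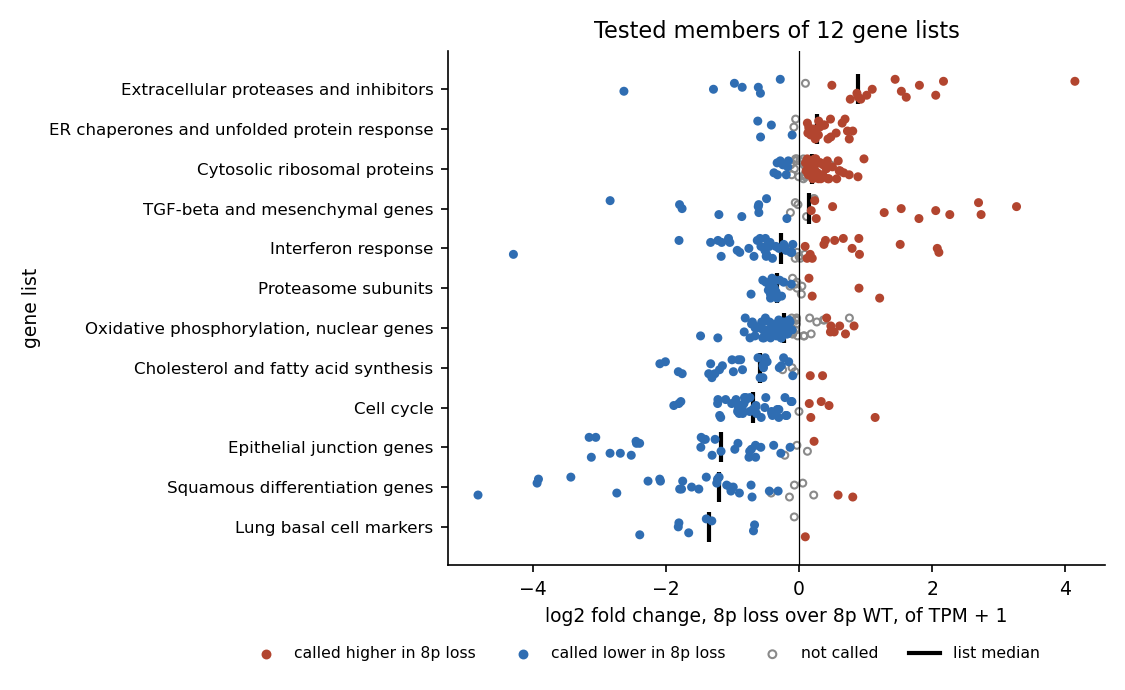
Log2 fold change (8p loss over 8p WT, of TPM + 1) of every tested member of 12 gene lists, red where called higher in 8p loss, blue where called lower and open where not called, with a bar at each list's median. Most basal, junction and cell cycle genes lie left of 0.

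The largest changes off 8p were in single genes of unlike function. TERT, the catalytic subunit of telomerase, had 149.8, 162.7 and 127.8 TPM in 8p loss libraries and 1.55, 0.976 and 1.34 TPM in 8p WT libraries. The means differed 114-fold, and on the log2(TPM + 1) scale this was the largest increase named here (6.01 ± 0.12, limma adjusted p = 1.8e-07). The labels do not state whether the cells carry an introduced TERT copy, and these values do not separate one from the gene itself. Of 19 telomere genes 9 were higher and 3 lower, where 33.1% of all genes were called higher and 36.0% lower. Apart from TERT no telomere gene was at least 2-fold higher. The osteoclast receptor OSCAR (4.84 ± 0.10), the interleukin 33 receptor IL1RL1 (4.29 ± 0.04), the aminopeptidase ANPEP (3.45 ± 0.04), the secretory granule gene SCG5 (3.21 ± 0.08), the adaptor SH2D2A (3.20 ± 0.10), the cytokine IL24 (3.16 ± 0.12) and the hair keratin KRT34 (3.13 ± 0.14) were also higher. EVC2, a cilium gene, had 1823 reads in 8p loss and none in 8p WT, at least 722-fold higher. TNFRSF6B, a decoy receptor, had 25.3, 26.8 and 8.94 TPM in 8p loss libraries and 0.545, 2.04 and 0.409 TPM in 8p WT libraries. TNFRSF6B can share reads with a transcript that also spans RTEL1. EVC2 lies in the lowered stretch at the start of chromosome 4, and TNFRSF6B in the raised stretch at the end of chromosome 20.

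On the lower side, PPP1R16B, a phosphatase regulator, had 0.0967, 0.184 and 0.140 TPM in 8p loss libraries and 73.2, 77.6 and 76.2 TPM in 8p WT libraries, the largest decrease by this rule (-6.07 ± 0.06, limma adjusted p = 2.0e-08). The stem cell zinc finger gene ZFP42 (-5.70 ± 0.09), the integrin ligand NPNT (-4.95 ± 0.07), the myosin light chain MYL9 (-4.30 ± 0.07), the transcriptional cofactor EYA2 (-4.19 ± 0.09) and the serpin SERPINB13 (-3.81 ± 0.10) were also lower. PPP1R16B, MYL9 and EYA2 lie in the shifted stretch of 20q and ZFP42 in that of 4q. The readthrough gene TGIF2-RAB5IF (-4.12 ± 0.58), also in the shifted stretch of 20q, shares sequence with its neighbours. ENSG00000269711 (-4.35 ± 0.46), listed without a symbol, had uneven 8p WT values of 7.99, 31.2 and 28.2 TPM. Among abundant genes SDC4, a heparan sulfate proteoglycan, had 616.6, 614.2 and 635.4 TPM in 8p loss libraries and 1876, 1948 and 1906 TPM in 8p WT libraries (-1.62 ± 0.03). SDC4 too lies in the shifted stretch of 20q.

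Several of these genes had other levels in the chromosome 3 cells, whose table was scaled separately, so values are set side by side without a test. TERT had 105.9 to 142.0 TPM in 3p loss, 173.9 to 253.3 in 3q gain and 147.0 to 244.6 in Chr3 WT libraries, which put the 8p WT libraries, at 0.976 to 1.55, below all others. VIM had 0.642 to 188.9 TPM in 3p loss, 11.0 to 57.4 in 3q gain and 22.2 to 294.4 in Chr3 WT libraries, against 450.4 to 551.4 in 8p loss and 50.2 to 52.3 in 8p WT. CDH1 had 83.4 to 141.4 TPM in 3p loss, 121.1 to 131.5 in 3q gain and 112.6 to 157.5 in Chr3 WT libraries, between the 66.0 to 69.9 of 8p loss and the 356.1 to 367.8 of 8p WT. TP63 had 54.1 to 81.8 TPM in 3p loss, 87.5 to 122.8 in 3q gain and 72.0 to 109.9 in Chr3 WT libraries, all below the 142.6 to 147.0 of 8p WT, with 56.1 to 60.6 in 8p loss. In the 135 8p genes tested in both tables, the median change was -0.84 in 8p loss against 8p WT, -0.06 in 3p loss and -0.03 in 3q gain against Chr3 WT. Across 9859 genes off chromosomes 3 and 8, the changes of 8p loss had a Pearson r of -0.28 with those of 3p loss and -0.22 with those of 3q gain. These describe genes, which are not independent, and the 8p and chromosome 3 comparisons share no libraries.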

How the data were processed

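RNA was sequenced from 3 libraries of 8p loss and 3 of 8p WT cells. The build was GRCh38, per the submitters' processing notes. For aligner, counter, annotation and strand setting the sources used here give nothing. TPM values were computed by the authors and deposited as 1 table, whose header names no unit. They were taken as TPM. In all 16347 genes with a value, dividing by 1 factor per gene and library left whole reads (tolerance 0.01). That holds for any value scaled by gene length and library size, so it does not by itself fix the unit. Column sums were 861114 to 881074. Of 20066 rows, 30 shared a name with another and were summed. RefSeq positions were found for 96.8% of names, and 8p ended at 45 Mb.

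limma 3.58.1 (R 4.3.3) was fitted to log2(TPM + 1) of these 6 libraries, with its trend option and genes averaging 1 TPM or more, and p-values were adjusted over all of them. Fold changes on this scale understate those of low genes. The arm level of a library is the mean over its tested genes minus that over tested genes of other autosomes. The fit was tried on simulated data first. Alternatives were median centring, factors from genes off chromosome 8, pseudocount 0.1, no filter or a mean of at least 10, no trend, array weights, a replicate block and each library left out. The 2-fold rule and voom on recovered reads were added after seeing the data.

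The members and the 46 gene lists were chosen with earlier results of these data known. The text draws on the 12 largest changes each way off 8p without overlap and with a mean of at least 5 TPM in the higher group, the 8 extreme 8p genes each way, the 8 most abundant called 8p genes, listed 8p genes, abundant off-8p genes changed 2-fold, up to 4 abundant and the extreme members of each list, and cell type markers. CDCA2, ESCO2, GINS4, PBK, CD24, RAB25, CLDN4, CLDN7, GRHL2, OVOL1, ESRP1, CLDN1, KLK6, KLK7, KLK10, SPRR3, S100A7, SCEL, SPRR2D, ACTA2, TGFB1, CDH2, POSTN, ZEB1, SNAI1, SNAI2, TWIST1, LOX, SPARC, SERPINE2, MMP2, MMP3, MDM2, GDF15, RRM2, CDK1, MKI67, HMGCS1, SREBF2, GBP1, IFIT1, XAF1 and FGFR2, and the promoters printed, were chosen after their values were seen. Some genes and lists are not reported here.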

Additional observations from a re-analysis of the deposited data

How the results depend on the processing

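Of 102 recomputed main results, 95 stayed on their side and within their limits. The median change of 8p genes, -0.83, was -0.88 with a pseudocount of 0.1, -0.73 with no filter, -0.85 with a mean of at least 10 and -0.86 with voom on recovered reads, and -0.82 to -0.85 with a library left out. The arm difference of -0.87 was -0.94 with a pseudocount of 0.1, -0.70 with no filter and -0.95 with a mean of at least 10, and -0.86 to -0.88 with a library left out. The cause was not tested beyond the fact that a pseudocount of 1 weighs most on low genes. Called genes (8498) numbered 7637 to 8609 with a library left out, 3537 to 4075 higher and 4088 to 4534 lower. Those off 8p (8364) numbered 7506 to 8473, and 5824 without the chromosomes that hold other shifted stretches. The 8p genes called lower (132) numbered 128 to 133. Replicate numbers gave no clear pairing of the libraries: same-numbered deviations correlated at 0.0916, -0.0095 and 0.217. Replicates 1 and 3 of 8p loss correlated best with their own number, and replicate 2 with number 1 (0.12). With 3 libraries a group these values cannot decide whether the libraries are paired. With the replicate block 8456 genes were called, 4050 higher and 4406 lower, 8320 off 8p and 133 8p genes lower, with a median of -0.83. Of 383 named genes 373 were called, 350 of them under every alternative run. Reversals among the named genes were in 4 genes near 0 that were not called. With a library left out, DLC1 ranged from -0.018 to 0.037, GNRH1 from -0.26 to 0.090, ITGB4 from -0.12 to 0.0071 and SORBS3 from -0.091 to 0.049. SORBS3 was also 0.0061 with factors from genes off chromosome 8, 0.037 with array weights and 0.016 with voom. Junction genes called higher were 2 in place of 1 without 8p loss replicate 3, and squamous genes called lower were 14 with a mean of at least 10, which tests fewer genes. Levels under about 1 TPM rest on few reads.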
